A study of Mus musculus with 14 samples.

Results

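Connexins are the subunits of gap junctions, the channels that join the cytoplasm of neighbouring cells, and pannexins are proteins that form channels in the membrane of 1 cell. The report covers 5 connexin genes and 1 pannexin gene of the glial network in the mouse spinal cord, namely Gja1, Gjb6 and Gjb2 of astrocytes, Gjb1 and Gjc3 of myelinating glia, and the ATP-releasing channel gene Panx1. They were taken by gene symbol from the deposited table, which gave 6 of its 24116 entries, and all 6 passed the filter on low values and were tested. Another 17 connexin and pannexin genes of the table are given beside them.

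The study asked how microglia shape a demyelinated lesion. RNA was read from laser-microdissected ventral spinal cord in 4 groups. Ablated lesions (4 libraries, titled 8, 10, 12 and 14) and ablated distal tissue (4 libraries, titled 7, 9, 11 and 13) came from Cx3cr1-CreER :Rosa26-iDTR+/- mice, in which tamoxifen lets Cx3cr1-expressing cells make a diphtheria toxin receptor. Non-ablated lesions (3 libraries, titled 2, 4 and 6) and non-ablated distal tissue (3 libraries, titled 1, 3 and 5) came from Cx3cr1-CreER :Rosa26-iDTR-/- mice, so the Cre driver is shared by all groups. By the design text all mice were given tamoxifen for 3 days. After another 4 to 6 weeks lysophosphatidylcholine (LPC), a lipid that dissolves myelin, was injected into the ventral cord, and toxin was given every day until the tissue was taken 5 days after that injection. Distal tissue is uninjured cord of such mice. Each library pools 3 to 5 mice of both sexes, and p-values measure the spread between pools. The design text counts 4 ablated and 3 non-ablated pools, so lesion and distal libraries may come from the same mice; no label pairs them, and the tests treat them as independent. The age labels are 8 to 15 months in ablated and 2 to 7 months in non-ablated libraries and do not overlap, so age and genotype cannot be told apart. They go up by 1 month with each library title, and no other source for the ages was used. Cx3cr1 is also expressed by macrophages other than microglia, which limits the ablation as a microglia-specific model.

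The libraries held 23600319 to 30838622 recovered reads. Cx3cr1, the gene whose promoter drives the Cre, read 155 to 336 normalized counts in ablated lesions, against 3657 to 4717 in non-ablated ones, and 21.7 to 128 in ablated distal and 510.1 to 1361 in non-ablated distal tissue, with no overlap in either pair. Ablated distal library 9 stood apart from the others on the second principal component (151.6, against -55.3 to 43.0). Non-ablated distal library 5 and non-ablated lesion library 6 had the highest summed T and NK cell marker levels (877 and 688 normalized counts, against 0 to 279.9 in the other 12 libraries). Results that change without these libraries are given so below.

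Astrocytes are joined to each other mainly by connexin 43 (Gja1) and connexin 30 (Gjb6), with connexin 26 (Gjb2) also found in some astrocytes and in the meninges. Oligodendrocytes use connexin 32 (Gjb1), which pairs with an astrocyte connexin, and also express connexin 29 (Gjc3), which is found along the inner myelin membrane and is not known to form classical junctions. This coupled network is known for spreading potassium, metabolites and calcium signals, and loss of connexin 32 causes disease of peripheral myelin. Pannexin 1 releases ATP, a signal read by purinergic receptors on microglia and other cells.

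The start regions of 4 members are shown because Gja1, Gjb6 and Gjb1 were lower together in the lesions and Panx1 was higher. Each runs from 250 bases before to 50 bases after an annotated start (RefSeq, build GRCm38.p6, read on the gene's strand): Gja1 at chr10:56377050-56377349 (plus strand), Gjb6 at chr14:57133562-57133861 (minus strand), the fourth of 4 annotated Gjb1 starts at chrX:101383482-101383781 (plus strand) and Panx1 at chr9:15045429-15045728 (minus strand). Capitals mark matches, on either strand, to any of 5 motifs: ACAANG (SOX-type), TGANTCA (AP-1-type), GGGCGG (SP1-type), CCAAT and TATAAA; no 2 marked motifs overlap.
Gja1: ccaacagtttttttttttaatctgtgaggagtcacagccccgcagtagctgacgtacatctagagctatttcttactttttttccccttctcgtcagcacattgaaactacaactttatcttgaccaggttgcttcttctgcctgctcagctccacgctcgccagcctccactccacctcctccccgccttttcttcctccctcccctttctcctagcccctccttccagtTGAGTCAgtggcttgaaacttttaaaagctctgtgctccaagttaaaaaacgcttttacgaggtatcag
Gjb6: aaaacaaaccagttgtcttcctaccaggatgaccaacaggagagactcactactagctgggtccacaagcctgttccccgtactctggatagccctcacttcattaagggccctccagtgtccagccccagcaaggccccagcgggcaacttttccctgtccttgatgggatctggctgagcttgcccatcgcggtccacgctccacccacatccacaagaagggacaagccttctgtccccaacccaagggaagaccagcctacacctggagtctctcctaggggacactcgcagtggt
Gjb1: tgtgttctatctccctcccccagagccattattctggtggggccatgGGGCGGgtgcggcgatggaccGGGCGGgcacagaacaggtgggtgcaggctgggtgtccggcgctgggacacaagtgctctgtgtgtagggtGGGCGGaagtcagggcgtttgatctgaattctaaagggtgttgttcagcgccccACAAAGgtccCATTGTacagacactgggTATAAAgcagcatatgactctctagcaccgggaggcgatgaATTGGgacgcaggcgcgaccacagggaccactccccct
Panx1: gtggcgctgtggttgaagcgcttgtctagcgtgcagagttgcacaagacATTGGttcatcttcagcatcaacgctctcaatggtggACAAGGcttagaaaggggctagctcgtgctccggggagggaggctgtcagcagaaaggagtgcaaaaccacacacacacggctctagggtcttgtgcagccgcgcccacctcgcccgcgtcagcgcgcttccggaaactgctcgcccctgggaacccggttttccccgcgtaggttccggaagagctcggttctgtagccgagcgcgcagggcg

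The 3 genes that were lower share no motif of the 5 in these windows. The Gja1 window holds 1 TGANTCA match, which starts 19 bases before the start site (position -19), and 7.81% of 32851 RefSeq start windows of this length hold that motif. The Gjb6 window holds none of the 5. The Gjb1 window shown, of the 4 the one with most matches, holds 2 ACAANG matches (41.2% of windows hold 1 or more), 3 GGGCGG matches (35.7%), 1 CCAAT match (37.4%) and 1 TATAAA match (13.6%, position -29). Of the other Gjb1 windows the first holds 1 ACAANG and 1 CCAAT match, the second 1 CCAAT match and the third none of the 5. Panx1 has 1 ACAANG and 1 CCAAT match, as has Gjc3, and Gjb2 has 2 GGGCGG matches. A match describes letters, not a bound site. Gjb2 and Gjb6 are neighbours on chromosome 14, with 18598 bases and no RefSeq gene between them.

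In lesion against distal tissue the astrocyte connexins Gja1 and Gjb6 and the oligodendrocyte connexin Gjb1 were lower in both genotypes by 5.63 to 12.4 times, and Panx1 was higher by 8.89 times in ablated and 4.90 times in non-ablated mice. Gjc3 passed the test in non-ablated mice and missed the threshold in ablated mice, and Gjb2 did not pass in either genotype. Members called at an adjusted p under 0.05 (limma, adjusted over 15632 genes) were 3 lower and 1 higher in ablated mice, where 13.8% of all genes tested were lower and 16.1% higher. In non-ablated mice 4 were lower and 1 higher, beside 13.3% and 14.7% of all genes. The median log2 fold change of the 6 was -1.70 in ablated and -2.25 in non-ablated mice, beside 0.05 and 0.07 over all genes. The tissue is bulk, so fewer cells of a type and less RNA per cell cannot be told apart.

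**Figure D1:**
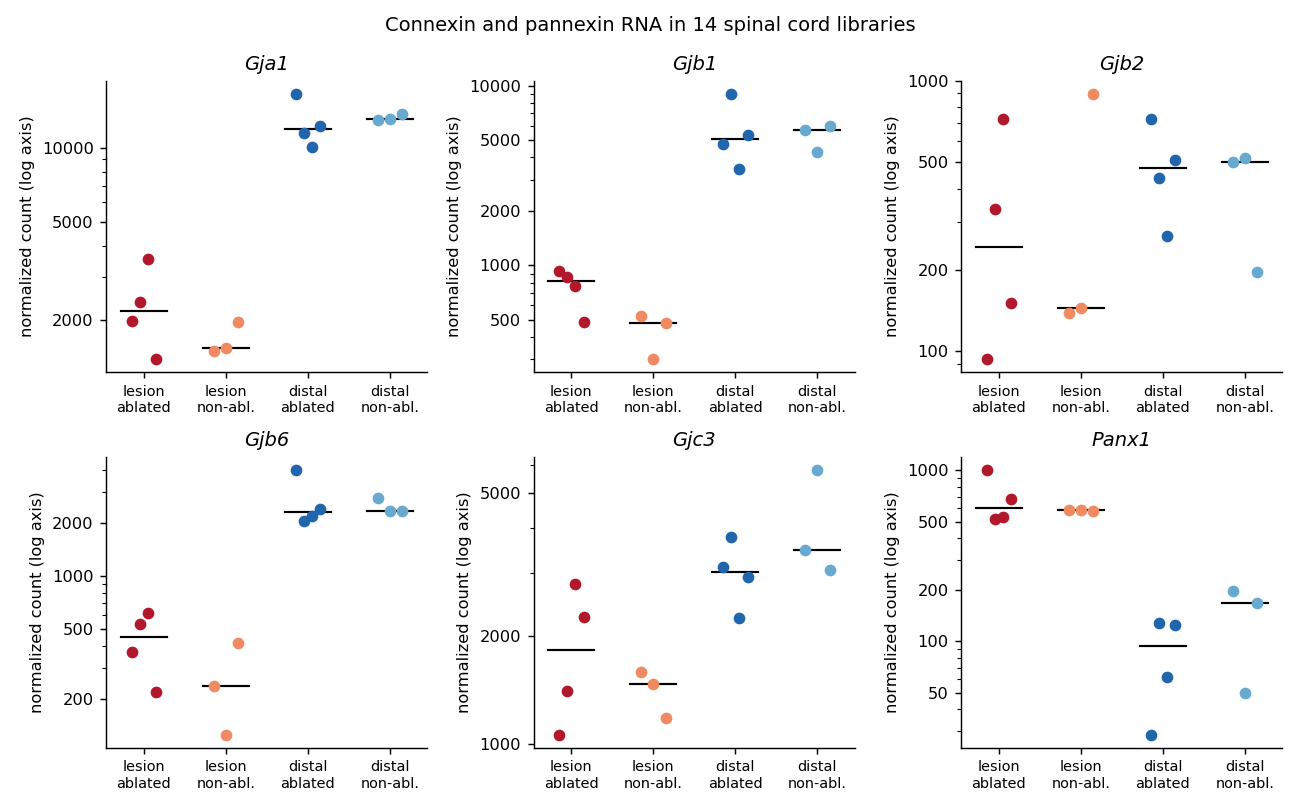
Normalized counts (log axis) of the 6 genes in each of 14 libraries, as points, by group; bars are group medians. All lesion points of Gja1, Gjb1 and Gjb6 lie below all distal points, all lesion points of Panx1 lie above, and the Gjb2 groups overlap.

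Gja1 encodes connexin 43, the main connexin of astrocytes and also one of fibroblasts (chromosome 10, 56377300 to 56390419, plus strand; coordinates are those of RefSeq, GRCm38.p6). It read 1977, 2359.9, 3542 and 1393 normalized counts in ablated lesions and 16454, 11464, 10075 and 12227 in ablated distal tissue. In non-ablated mice it read 1494, 1542 and 1964 in lesions and 12958, 13012 and 13676 in distal tissue. The highest lesion library stayed well below the lowest distal one. On the log2 scale Gja1 fell by 2.49 ± 0.25 in ablated mice (SE, limma adjusted p = 4.6e-06) and fell by 3.00 ± 0.28 in non-ablated mice (limma adjusted p = 4.9e-06).

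Gjb6 encodes connexin 30, an astrocyte connexin of mature grey matter that is shared with the inner ear (chromosome 14, 57123301 to 57133611, minus strand). Ablated lesions held 369, 536, 616 and 219 normalized counts, against 4019, 2072, 2207 and 2399 in ablated distal tissue. Non-ablated lesions held 237, 126 and 418, against 2776, 2333 and 2333 in non-ablated distal tissue. Again no lesion library reached a distal one. Gjb6 fell by 2.67 ± 0.38 on the log2 scale in ablated mice (limma adjusted p = 0.0001) and fell by 3.41 ± 0.44 in non-ablated mice (limma adjusted p = 5.7e-05).

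Gjb2 encodes connexin 26, which leptomeningeal cells also make (chromosome 14, 57098602 to 57104702, minus strand). It held 93.9, 335, 723 and 151 normalized counts in ablated lesions and 725, 439, 268 and 511 in ablated distal tissue. In non-ablated mice it held 138, 144 and 894 in lesions and 502, 520.1 and 196 in distal tissue. Lesion and distal values overlap in both genotypes, and the spread within the lesions is wide. The log2 fold changes were -0.91 ± 0.68 in ablated mice (95% interval -2.37 to 0.54, limma adjusted p = 0.346) and -0.50 ± 0.79 in non-ablated mice (-2.18 to 1.18, limma adjusted p = 0.682). Without non-ablated lesion library 6, which held 894, the second value was -1.39 ± 0.74 (limma adjusted p = 0.215), and -1.85 ± 0.77 with non-ablated distal library 5 left out too (limma adjusted p = 0.119).

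In the lesions of each genotype the library highest in Gjb2 was also highest in summed markers of meningeal and perivascular fibroblasts, whereas in distal tissue it was not. The summed level of the 10 fibroblast markers, none of them at 0 throughout, was 33911 to 106980 normalized counts in ablated lesions, with the maximum in library 12, and 33004 to 84124 in non-ablated lesions, with the maximum in library 6. In distal tissue it was 47892 to 110592 in ablated and 47552 to 89142 in non-ablated mice, where library 5 had the highest sum and the lowest Gjb2 (196) and library 3 the lowest sum and the highest Gjb2 (520.1). In ablated distal tissue the highest sum was in library 9 and the highest Gjb2 in library 7. Of 9 markers tested, 6 were higher and 1 lower in ablated lesions, beside 16.1% and 13.8% of all genes. In non-ablated lesions 4 were higher and 1 lower, beside 14.7% and 13.3% of all genes. The lower one had log2 fold changes of -3.59 and -4.89, against list medians of 2.89 and 2.33. The sums of lesion and distal tissue overlap, so they do not follow the markers that rose. Of the 9 tested, 8 had positive log2 fold changes in both genotypes. The median sum was nevertheless 40865 in ablated lesions and 70453 in ablated distal tissue, and 60783 and 68836 in non-ablated mice. The sum is thus no measure of fibroblasts, above all in distal tissue. Neither the match with Gjb2 in lesions nor its absence in distal tissue can be read as one with these cells. The part of fibroblasts in the Gjb2 values was not tested.

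Gjb1 encodes connexin 32 of oligodendrocytes and Schwann cells (chromosome X, 101376376 to 101385629, plus strand). It read 934, 868, 773 and 486 normalized counts in ablated lesions and 4759, 8953, 3419 and 5335 in ablated distal tissue. In non-ablated mice it read 523, 302 and 481 in lesions and 5669, 4294 and 5968 in distal tissue. No lesion library came near the lowest distal library. Gjb1 fell by 2.83 ± 0.30 on the log2 scale in ablated mice (limma adjusted p = 8.2e-06) and fell by 3.63 ± 0.34 in non-ablated mice (limma adjusted p = 4.9e-06). These were the lowest fold changes of the 6 members, but Gjb6 was lower than Gjb1 in ablated mice without distal library 9 (-2.77 against -2.57) or lesion library 12 (-2.87 against -2.85). The order also turned in non-ablated mice without lesion library 6 (-3.83 against -3.72) and without distal library 5 as well (-3.87 against -3.63).

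Gjc3 encodes connexin 29 of myelinating glia (chromosome 5, 137950992 to 137963098, minus strand). Ablated lesions held 1062, 1404, 2798 and 2252 normalized counts, against 3111, 3782, 2243 and 2926 in ablated distal tissue. Non-ablated lesions held 1586, 1469 and 1178, against 3476, 5804 and 3053 in non-ablated distal tissue. The ablated groups overlap through lesion libraries 12 and 14 and distal library 11, and the non-ablated groups do not. Gjc3 fell by 1.496 ± 0.35 on the log2 scale in non-ablated mice (limma adjusted p = 0.00498). In ablated mice the value was -0.76 ± 0.30 (limma adjusted p = 0.0709), and without ablated lesion library 12 it was -0.98 ± 0.29 (limma adjusted p = 0.0244), which passes. The difference between the genotypes was 0.74 ± 0.46 (95% interval -0.24 to 1.72, limma adjusted p = 0.929). Of the 75-base stretches of Gjc3 transcripts, 1.05% occur in 69 other genes. A few reads could thus be misplaced in either direction, out of Gjc3 or into it. The other members share no such stretch.

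Panx1 encodes the ATP-releasing channel pannexin 1 (chromosome 9, 15005785 to 15045478, minus strand). It read 1004, 521, 532 and 677 normalized counts in ablated lesions and 28.5, 129, 62.1 and 125 in ablated distal tissue. In non-ablated mice it read 586, 583 and 577 in lesions and 198, 49.6 and 167 in distal tissue. Every lesion library exceeded every distal one. The log2 fold change was 3.15 ± 0.51 in ablated mice (limma adjusted p = 0.000296) and 2.29 ± 0.59 in non-ablated mice (limma adjusted p = 0.00931).

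**Figure D2:**
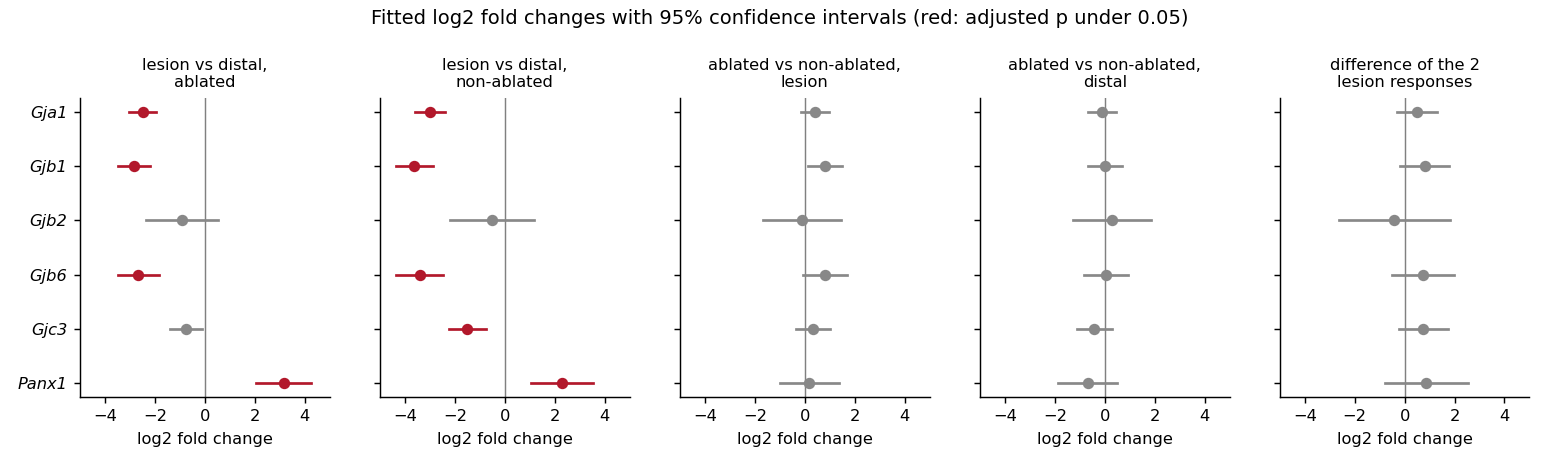
Fitted log2 fold changes (points) with 95% confidence intervals (lines) of the 6 genes in the 5 comparisons, red where the adjusted p is under 0.05. Red points appear only in the lesion versus distal panels, with Panx1 at 3.15 and 2.29 on the higher side.

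No member passed the threshold between the genotypes, which also differ in age labels. In ablated against non-ablated lesions limma called 0 of 6 (0.294% of all genes were called), and 1 member, Gjb1, had an unadjusted p under 0.05. Gjb1 averaged 765 ± 198 normalized counts in ablated lesions (SD, n = 4) and 436 ± 117 in non-ablated lesions (SD, n = 3), with overlap at ablated library 14. Its log2 fold change was 0.81 ± 0.32 (95% interval 0.12 to 1.498, limma adjusted p = 0.534). Over 27 alternative fits its adjusted p ran from 0.0574 to 1. The edgeR and DESeq2 fits on recovered reads called 0 of 6 as well.

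The other members had intervals in the lesion comparison that include 0. Gjb6 averaged 435 ± 177 normalized counts in ablated and 260.3 ± 148 in non-ablated lesions, with a log2 fold change of 0.80 (95% interval -0.08 to 1.68). The log2 fold change was 0.41 for Gja1 (-0.16 to 0.97), 0.32 for Gjc3 (-0.37 to 1.02), 0.18 for Panx1 (-0.996 to 1.35) and -0.11 for Gjb2 (-1.68 to 1.46). Gjb2 turned to 0.78 without non-ablated lesion library 6.

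In ablated against non-ablated distal tissue limma also called 0 of 6 (0.365% of all genes), with 0 at an unadjusted p under 0.05 and 0 by edgeR and DESeq2. The log2 fold changes ran from -0.68 for Panx1 (95% interval -1.86 to 0.49) to 0.30 for Gjb2 (-1.27 to 1.87). Gja1 averaged 12555 ± 2748 normalized counts in ablated (SD, n = 4) and 13216 ± 400 (SD, n = 3) in non-ablated distal tissue. Gjb2 turned to -0.16 without non-ablated distal library 5 and non-ablated lesion library 6. Gjb1 stood at 0.01 (-0.68 to 0.70), or -0.25 without ablated distal library 9, which held 8953, the highest Gjb1 value of all libraries.

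The lesion responses of the 2 genotypes were compared directly as the difference of their log2 fold changes. Limma called 0 of 6 (0.0128% of all genes), with 0 at an unadjusted p under 0.05 and 0 by edgeR and DESeq2. The difference was positive for Gja1 (0.50), Gjb1 (0.80), Gjb6 (0.74), Gjc3 (0.74) and Panx1 (0.86) and negative for Gjb2 (-0.41), each with a 95% interval that includes 0, such as -0.17 to 1.78 for Gjb1. These comparisons share libraries with those above.

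Levels between genes were compared per kilobase of principal transcript. In distal tissue of both genotypes the order of the mean level per kilobase was Gja1, Gjb1, Gjb6, Gjc3, Gjb2 and last Panx1. In non-ablated distal tissue Gja1 stood at 4153 ± 126 per kilobase, Gjb1 at 3350.2 ± 563, Gjc3 at 1027 ± 370 and Panx1 at 24.1 ± 13.6 (SD, n = 3). The ranges of Gja1 and Gjb1 do not overlap there but do in ablated distal tissue, and those of Gjb6 and Gjc3 overlap in non-ablated but not in ablated distal tissue.

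In the lesions the order was compressed. Gja1 was still first, at 729 ± 285 per kilobase in ablated lesions (SD, n = 4) and 524 ± 81.3 in non-ablated lesions (SD, n = 3). Panx1 was last at 119 ± 39.3 and 102 ± 0.775, and its range overlapped that of its neighbour in the order in both genotypes. In non-ablated lesions Gjc3, at 353 ± 52.5, stood above Gjb1, at 275 ± 73.9, with overlapping ranges.

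Shares within sets of these connexins differed between lesion and distal tissue, a comparison chosen after the values were seen and given with no test. The sums are of bulk tissue, so they do not show the connexin set of a cell type. Of the summed level per kilobase of Gjb1 and Gjc3, Gjc3 made up 31.0% to 64.7% in ablated lesions and 14.3% to 20.6% in ablated distal tissue. In non-ablated mice it made up 49.2% to 65.8% in lesions and 16.8% to 34.9% in distal tissue. Neither pair overlaps.

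Of the summed level per kilobase of Gja1, Gjb6 and Gjb2, Gjb2 made up 4.67% to 17.6% in ablated lesions and 2.58% to 4.09% in ablated distal tissue. In non-ablated mice it made up 8.98% to 31.3% in lesions and 1.48% to 3.99% in distal tissue, with the 31.3% in library 6. Gja1 remained the main part, at a mean of 69.3% in ablated lesions, 68.5% in non-ablated lesions, 73.2% in ablated distal and 75.5% in non-ablated distal tissue. Gjc3 and Gjb2 thus took larger shares of smaller sums.

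**Figure D3:**
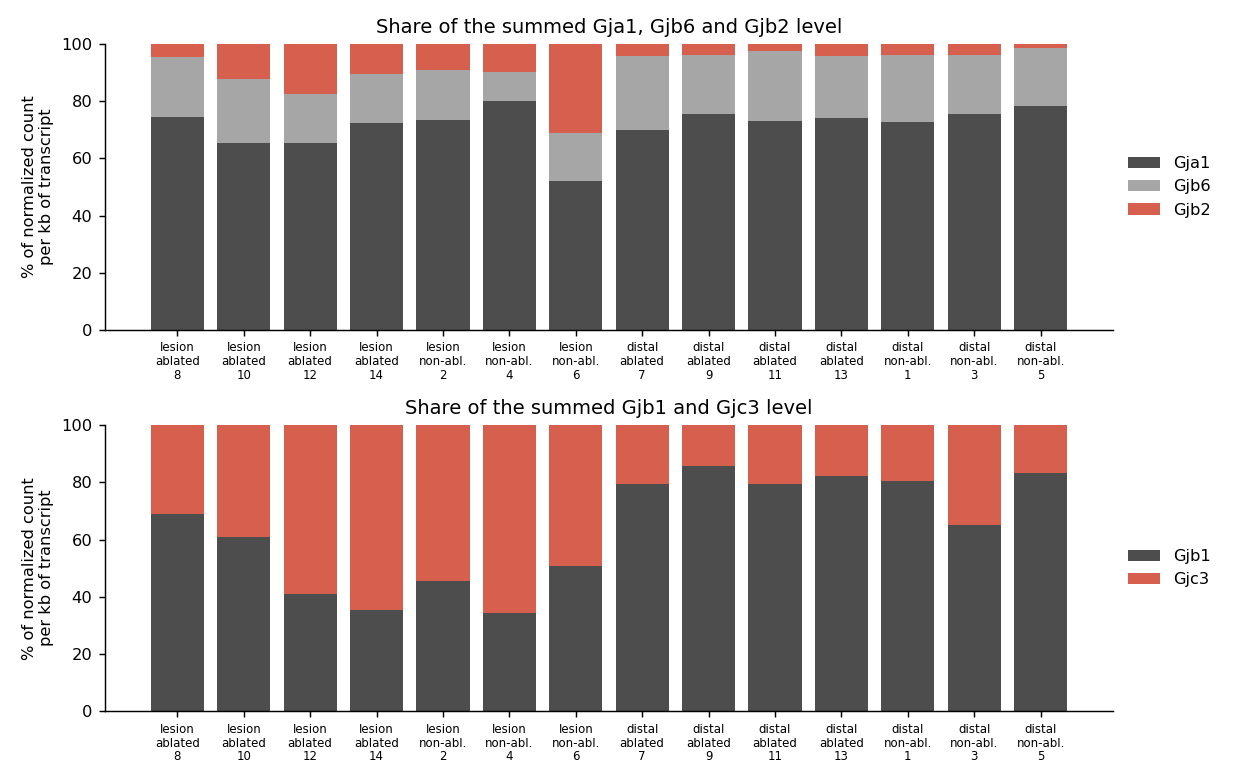
Stacked bars for each library of the percent share of each gene in the summed normalized count per kilobase of the 3 astrocyte connexins (top) and of the oligodendrocyte connexins Gjb1 and Gjc3 (bottom). Gjc3 (bottom, red) takes 31.0% to 65.8% in lesion libraries and 14.3% to 34.9% in distal libraries.

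Marker genes of astrocytes and of myelin were lower in lesions, as were Gja1, Gjb6 and Gjb1. For the marker counts that follow, 16.1% of all genes tested were higher and 13.8% lower in ablated lesions. In non-ablated lesions these shares were 14.7% and 13.3%. All 10 astrocyte markers were lower in lesions in both genotypes, with median log2 fold changes of -1.86 in ablated and -2.33 in non-ablated mice. Their summed level was 84172 to 132198 normalized counts in ablated lesions and 376909.5 to 476209 in ablated distal tissue, and 61939 to 83101 in non-ablated lesions and 363504 to 474732 in non-ablated distal tissue. None of the 10 was at 0 throughout. Gja1 at -2.49 and Gjb6 at -2.67 lay below the fold changes of 8 of the 10 markers in ablated mice, while Gjb2 lay above all 10 in both genotypes. Of 6 reactive astrocyte markers tested, 4 were higher in ablated lesions and 2 in non-ablated lesions. The part of astrocyte number in the fall of Gja1 and Gjb6 was not tested.

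All 12 myelin markers were lower in lesions in both genotypes, with medians of -2.80 in ablated and -3.11 in non-ablated mice. Their summed level was 317968 to 429398 normalized counts in ablated lesions and 1940724 to 2726227 in ablated distal tissue, and 219096 to 336509 in non-ablated lesions and 1987445 to 2538013 in non-ablated distal tissue. Gjb1 lay within the range of the myelin markers in both genotypes. Gjc3 at -0.76 lay above all 12 in ablated mice, and at -1.496 above 11 of 12 in non-ablated mice. Oligodendrocyte progenitor markers, of which 6 were tested, were higher for 3 in ablated and 1 in non-ablated lesions, and of 6 Schwann cell markers 2 were higher and 1 lower in ablated lesions and 1 higher and 1 lower in non-ablated lesions. Their part in the Gjb1 and Gjc3 values was not tested.

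Of 8 pan-macrophage markers, 8 were higher in ablated lesions and 6 in non-ablated lesions, with medians of 4.01 and 3.02. Their summed level was 618548 to 911502 normalized counts in ablated lesions, against 361815 to 537272 in non-ablated ones. Most of that sum was Lyz2, at 474237 to 697525 in ablated and 196925 to 304690 in non-ablated lesions. In ablated against non-ablated lesions 6 of the 8 markers had negative log2 fold changes (median -0.67), and limma called 1 lower, Fcgr1, and 0 higher. An unadjusted limma p under 0.05 was reached by 5, of which Lyz2 was the one higher, and edgeR and DESeq2 each called 1 lower and 0 higher. In distal tissue the sum was 6742 to 49269 in ablated and 20445 to 34588 in non-ablated mice. Of 8 homeostatic microglia markers tested, 5 were lower in ablated than in non-ablated lesions and 2 were lower in ablated than in non-ablated distal tissue, while P2ry12 and Gpr34 were listed at 0 in all libraries. The part of macrophage number in the rise of Panx1 was not tested. Of the other cell marker lists, 0 of 6 endothelial markers were higher and 1 was lower in each genotype's lesions, and 0 of 5 ependymal markers passed in ablated and 2 fell in non-ablated lesions. Of 10 neuron markers 0 passed in ablated and 1 fell in non-ablated lesions, and of 5 infiltrating monocyte markers 3 rose in ablated and 1 in non-ablated lesions. Of 4 T and NK cell markers 0 passed in either genotype by limma, edgeR or DESeq2, with 0 at an unadjusted p under 0.05. In ablated mice 0 ependymal and 1 neuron marker had an unadjusted p under 0.05, edgeR called 0 of each list and DESeq2 called 1 of each, lower. No endothelial marker was called higher by edgeR or DESeq2 either.

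**Figure D4:**
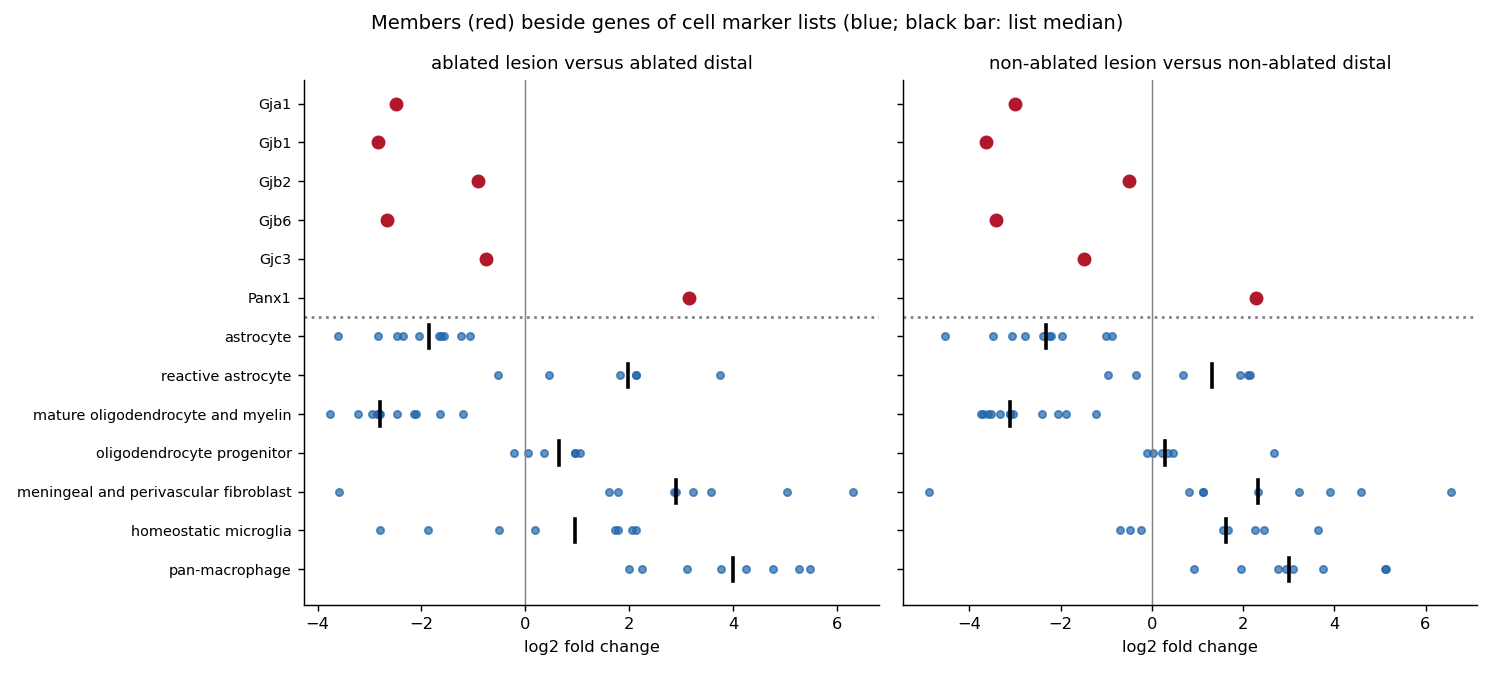
Log2 fold changes of lesion versus distal tissue in ablated (left) and non-ablated (right) mice for the 6 genes (red) and for each gene of 7 cell marker lists (blue; black bars are list medians). Gja1, Gjb1 and Gjb6 lie among the astrocyte and myelin markers, Gjb2 and Gjc3 nearer 0, and Panx1 among the pan-macrophage markers.

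The genes whose levels followed each member most closely over the 14 libraries were found by Pearson correlation of log2 values among 14459 genes, as a description. The libraries share the lesion and distal split, so values within the 7 lesion and within the 7 distal libraries are given beside them. Gja1 was closest to Aldoc, a glycolytic enzyme of astrocytes (r = 0.99, 0.91 within lesions but 0.13 within distal tissue), then Fgfr2 and Etv1. Gjb6 was closest to Gja1 itself (r = 0.98), and that pair held within the lesions (0.84) and within the 7 distal libraries (0.83). Gjb1 was closest to Fez1 (r = 0.995, 0.95 within lesions and 0.94 within distal tissue), Ndrg1 and Ntsr2. Of these Ntsr2 is an astrocyte marker.

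Gjc3 was closest to Pgrmc1 (r = 0.92, 0.84 within lesions and 0.85 within distal tissue), Luzp2 and Csrnp3. Panx1 was closest to Adgre1, which encodes the macrophage surface protein F4/80 (r = 0.97), but the value within lesions was 0.33 and that within distal tissue 0.91, followed by Sh3bp2 and Pole2. Gjb2 followed no gene above 0.83, with Fras1, Micu2 and Mc2r first. Within lesions these stood at 0.96, 0.81 and 0.96, and within distal tissue at -0.33, 0.88 and -0.08. Among the members Gja1 and Panx1 ran opposite (r = -0.89), and that value was -0.27 within lesions and -0.33 within distal tissue.

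Of the other 17 connexin and pannexin genes, 9 passed the filter, 4 were below it and 4 (Gja6, Gja10, Gjd3 and Gje1) were listed at 0 in all libraries. In lesions against distal tissue 2 of the 9 were lower and 2 higher in each genotype. Of all genes tested, 13.8% were lower and 16.1% higher in ablated mice, and 13.3% and 14.7% in non-ablated mice. On the log2 scale Panx2, a pannexin mostly of neurons and glia, fell by 2.62 ± 0.72 in ablated and fell by 4.47 ± 0.83 in non-ablated mice (limma adjusted p = 0.0123 and 0.00104), though it overlaps another annotated gene.

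Gjb5, known as an epidermal connexin, was higher at low counts. It averaged 13.3 ± 6.85 normalized counts in ablated lesions and 25.8 ± 30.5 in non-ablated lesions, and was at 0 in all 7 distal libraries. Set against a limit of 3 reads per library it was at least 3.81-fold higher in ablated and at least 7.65-fold higher in non-ablated lesions (limma adjusted p = 0.000737 and 0.00115). The second limit rests on non-ablated lesion library 4, which held 61.1, and without it is 2.43-fold, a value computed after the data were seen. Gjb5 reached 10 normalized counts in 3 libraries only, all of lesions (ablated lesions 8 and 12 and non-ablated lesion 4). With any of these left out it did not pass the filter and was not tested. It was thus tested only because it was high in lesions, and the limma p-values are no separate evidence for the rise.

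Gja4 and Gja5 of blood vessels, Gjc1, and Gjd2 of neurons did not pass in either genotype. Gja5 overlaps 4 other annotated genes and Gjd2 overlaps 1. Gjd2 also held only 0 to 2 recovered reads in the non-ablated lesions. Gjc1, a connexin of vessels and some neurons, averaged 239 ± 46.1 normalized counts in ablated lesions, 183 ± 41.2 in non-ablated lesions, 171 ± 44.5 in ablated distal tissue and 303 ± 42.5 in non-ablated distal tissue. None of the 9 was called in ablated against non-ablated lesions, in the same comparison of distal tissue or in the difference of lesion responses by limma, edgeR or DESeq2. An unadjusted limma p under 0.05 was reached by 2, 1 and 1 of them in these comparisons.

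Genes that work beside the connexins were also set out by list. Of 10 genes for potassium, water and glutamate handling in the glial network, all 9 that were tested fell in lesions in both genotypes. Their medians were -1.94 in ablated and -2.34 in non-ablated mice. Slc1a3 and Aqp4 are also among the astrocyte markers above, so these lists are not separate observations. Kcnj10, the potassium channel Kir4.1, averaged 10229 ± 1803 normalized counts in ablated lesions and 35492 ± 4295 in ablated distal tissue, and it fell by 1.80 ± 0.17 on the log2 scale (limma adjusted p = 3.1e-06). Mlc1, an astrocyte membrane protein of the junctions around vessels, fell by 2.45 ± 0.26 in ablated and fell by 3.41 ± 0.30 in non-ablated mice. Slc1a3, the glutamate transporter GLAST, fell by 2.05 ± 0.19 in ablated and fell by 2.21 ± 0.22 in non-ablated mice. None of the 9 was called in ablated against non-ablated lesions by limma, edgeR or DESeq2, where 5 had an unadjusted limma p under 0.05; with array weights Kcnj10 was called higher (limma adjusted p = 0.0294).

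Of 10 junction scaffold and traffic genes tested, 3 were higher and 2 lower in ablated lesions, beside 16.1% and 13.8% of all genes. In non-ablated lesions 2 were higher and 1 lower, beside 14.7% and 13.3% of all genes. Nov, which encodes CCN3, a matrix protein that binds connexin 43, averaged 496 ± 236 normalized counts in ablated lesions against 13.9 ± 11.7 in ablated distal tissue, and 394 ± 199 in non-ablated lesions against 1.94 ± 1.91 in non-ablated distal tissue. Cav1, caveolin 1, was higher in ablated lesions (1.25 ± 0.27), with -0.01 ± 0.31 in non-ablated mice; the difference was 1.26 and was not called (limma adjusted p = 0.745). Src, a kinase that phosphorylates connexin 43, did not pass in either genotype.

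Of 11 ATP receptors and other large-pore channels, 5 were higher and 1 lower in ablated lesions, beside 16.1% and 13.8% of all genes. In non-ablated lesions 3 were higher and 1 lower, beside 14.7% and 13.3% of all genes. P2ry6, a receptor for UDP, had log2 fold changes of 2.86 ± 0.26 in ablated and 2.33 ± 0.30 in non-ablated mice, and P2rx4, an ATP-gated cation channel, 2.16 ± 0.25 and 1.58 ± 0.29. Lrrc8a, the core subunit of the volume-regulated anion channel, fell by 0.97 ± 0.19 in ablated and fell by 1.47 ± 0.22 in non-ablated mice. P2ry1, a receptor for ADP, averaged 176 ± 31.5 normalized counts in ablated and 76.0 ± 11.0 in non-ablated lesions and was not called (limma adjusted p = 0.723).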

How the data were processed

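For 14 libraries the authors deposited a signal per gene, read counts divided by DESeq2 size factors, per the labels and the file headers. Named in the submitters' processing notes are BWA 0.7.17.1, bcl2fastq, DESeq2 and mm10. Which counter, strand setting and annotation were used is not given in the sources used here. Per the labels' protocols, RNA was amplified by multiple displacement amplification, so reads are not independent molecules and limits cover counting error only. Dividing by the smallest step of each column gave whole reads for 100% of values within 0.01. A single limit of 3 reads stands for a gene at 0. The 8 entries without a symbol, 0.00265% to 0.0239% of reads, were left out.

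Counts were tested as log2(normalized count + 1) with limma 3.58.1 (R 4.3.3, trend) for the 15632 genes that reached 10 normalized counts in 3 or more libraries, with 4 group means over 14 libraries (10 residual degrees of freedom) and Benjamini-Hochberg adjustment per comparison. Fold changes on this scale understate low genes. edgeR 4.0.16 and DESeq2 1.42.0 on recovered reads were alternatives. Simulated data were used to check the fit. The members, the 17 gene lists beside them and the tests were chosen with earlier results of these data known. Named genes were all members, all other connexins and pannexins tested, up to 4 genes per pathway list with the smallest p in the ablated lesion response or in ablated against non-ablated lesions, and the 3 genes most alike each member; some genes under these rules are not reported here. Entrez numbers matched RefSeq GRCm38.p6 for 24061 entries; lengths are GENCODE principal transcripts. None of the 6 members overlaps another annotated gene.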

Additional observations from a re-analysis of the deposited data

Results flagged for a closer look

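Among 43 pairs of a gene and a group of 4 libraries (22 genes, 2 groups), 3 had a library set apart from the other 3 by a gap above 0.829 of the group's range, where chance gives about 1 in 20. Gjb6 read 4019 normalized counts in ablated distal library 7, against 2072 to 2399 in the other ablated distal libraries. Gja4 read 412 in ablated distal library 11, against 16.7 to 76.9. Src read 1027 in ablated distal library 13, against 521 to 603. The difference between the lesion responses of the genotypes was called for 0 of these genes.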

How the results depend on the processing

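For the 6 members in 5 comparisons, 804 alternative values were computed. Direction and side of the threshold were kept in 779. A further 24 changed sign with neither value called, and in 1 (Gjc3, ablated lesion against ablated distal, without ablated lesion library 12) the call was gained, which took the members called from 4 to 5. None was lost or reversed. Members called stayed at 5 in the non-ablated lesion response and at 0 in the other 3 comparisons under every alternative run. Counts over all genes moved more. In ablated against non-ablated lesions 46 genes were called (10.9% of them higher), against 1013 with array weights (45.4% higher), 416 from the groups compared alone (25.0%), 259 with DESeq2 (34.4%), 100 with quantile normalization, 98 with a pseudocount of 10, 9 without the 2 libraries of high T and NK cell markers and 2 with age as a covariate; leaving out single libraries gave 5 to 111. In distal tissue 57 were called (10.5% higher), against 531 with DESeq2 (34.3%), 20 without those 2 libraries (35%), 7 with age and 0 from the groups alone, and 11 to 145 without single libraries. The difference of responses called 2 genes, 93 with DESeq2 (58.1% higher), 6 with array weights, 1 with age or a minimum of 50, and 0 without a filter or without those 2 libraries. The causes were not tested. No paired analysis was run because the labels tie no lesion piece to a distal piece, though both may come from the same pools. Consecutive titles alternate distal and lesion tissue, and whether neighbouring titles share a pool is not given. With 3 or 4 pools per group, changes in Gjb2 (wide spread between libraries) and Gjb5 (few reads) are poorly bounded.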
